A study of Mus musculus with 16 samples.

Results

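The mouse genes described here were 10 sensors of microbial molecules and their partners in the ileum, taken by name from the deposited gene tables. They were 2 NOD receptors (Nod1 and Nod2), 2 further NOD-like receptors (Nlrp6 and Nlrx1), 3 Toll-like receptors (Tlr2, Tlr4 and Tlr5), 2 adaptors (Myd88 and Card9) and 1 cytokine (Il18). All 10 were among the 22872 genes with at least 1 count and among the 15267 genes that passed edgeR's filter on low counts. The set was chosen by values of the insulin comparison in these libraries, in which Card9 and Nlrx1 were higher with insulin, so the insulin comparison is given for the 10 genes as a description, without a test.

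The RNA came from the whole wall of the ileum of 16 male STAM mice, with 1 library per mouse. STAM mice are a diabetes model made with streptozotocin on day 2 of life, followed by high-fat feeding that began at 4 weeks, and every mouse here carried a floxed insulin receptor gene. Control-STAM-nonINS mice (n = 4) had no Cre and got saline, and Control-STAM-INS mice (n = 6) had no Cre and got the long-acting insulin degludec from 6 weeks of age, in 2 daily injections of up to 12 U/kg. ieIRKO-STAM-INS mice (n = 6) were labelled as knockouts of the insulin receptor in the intestinal epithelium, and got the same insulin. The Cre transgene of this genotype was Villin-Cre, whose promoter is active in the intestinal epithelium. Tissue was taken at 20 weeks of age. The ileal wall also holds immune cells, muscle and vessels, and in such bulk RNA fewer cells of a type and less RNA per cell cannot be told apart.

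Toll-like receptors sit in the cell surface or endosome membrane and bind bacterial lipids, flagellin or nucleic acids. Most of them signal through Myd88 to NF-kappaB. NOD receptors bind fragments of peptidoglycan in the cytosol, and Card9 passes signals from fungal C-type lectin receptors through Bcl10 and Malt1 to the same factor. In the gut, Nlrp6 is known for its role in the epithelium and in an inflammasome that matures interleukin-18, and Nlrx1 is a NOD-like receptor of mitochondria that restrains antiviral and NF-kappaB signals.

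Between 13288018 and 22215382 reads were counted per library. The insulin receptor gene itself, Insr, did not set the libraries labelled ieIRKO-STAM-INS apart from Control-STAM-INS. Its count covers the whole gene and the whole wall, so reads from exons outside the floxed part and from other cells than epithelium enter it, and the value does not test the deletion in the epithelium. Levels are given as CPM, counts per 1000000 counts of a library after TMM scaling. Insr had 67.2 ± 13.4 CPM (SD, n = 6) in those libraries against 62.7 ± 10.1 CPM (SD, n = 6) with insulin in the controls, a log2 fold change of 0.10 with a standard error (SE) of 0.13 and, by edgeR's quasi-likelihood test, an adjusted p of 0.805. Without ieIRKO-STAM-INS replicate 4 this value was -0.0026. The summed level of 10 epithelial markers was lowest in Control-STAM-nonINS replicate 4, at 13250 CPM against 15860 to 21260 CPM in the other libraries. That library also had the highest sum of 5 endothelial markers, at 269 CPM against 92.5 to 148 CPM in the others. Without it, the log2 fold change of Card9 with insulin was 1.10. B cell markers stood apart in ieIRKO-STAM-INS replicates 2 and 3, at 522 and 297 CPM against 20.8 to 58.7 in the other 14 libraries.

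The RefSeq promoter windows of Card9, Nlrx1, Nlrp6 and Il18, chosen after their values were seen, are printed as reference for the start sites of the members described first. Each window runs from 250 bases before to 50 bases after the RefSeq start on GRCm38.p6, 5′ to 3′ on the strand of the gene, and 9 of the 10 members had such a window. Card9 lies on the minus strand (chr2:26360860-26361159), as does Nlrx1 at the upstream of its 2 RefSeq starts (chr9:44268550-44268849). Nlrp6 (chr7:140920652-140920951) and Il18 (chr9:50554450-50554749) lie on the plus strand. The RefSeq start of Il18 lies upstream of the first base of the gene in GENCODE. Capitals mark matches to a searched motif.
Card9: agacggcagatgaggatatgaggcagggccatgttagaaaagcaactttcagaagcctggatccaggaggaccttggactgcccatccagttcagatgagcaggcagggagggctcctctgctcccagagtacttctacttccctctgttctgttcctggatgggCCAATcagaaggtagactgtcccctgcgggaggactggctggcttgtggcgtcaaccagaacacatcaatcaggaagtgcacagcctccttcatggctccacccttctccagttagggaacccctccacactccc
Nlrx1: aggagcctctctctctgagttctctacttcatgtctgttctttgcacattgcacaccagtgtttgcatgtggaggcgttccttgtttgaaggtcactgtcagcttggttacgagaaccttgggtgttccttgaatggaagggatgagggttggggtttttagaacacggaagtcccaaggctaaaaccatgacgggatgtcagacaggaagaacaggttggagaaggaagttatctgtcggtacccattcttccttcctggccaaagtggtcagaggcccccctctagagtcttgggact
Nlrp6: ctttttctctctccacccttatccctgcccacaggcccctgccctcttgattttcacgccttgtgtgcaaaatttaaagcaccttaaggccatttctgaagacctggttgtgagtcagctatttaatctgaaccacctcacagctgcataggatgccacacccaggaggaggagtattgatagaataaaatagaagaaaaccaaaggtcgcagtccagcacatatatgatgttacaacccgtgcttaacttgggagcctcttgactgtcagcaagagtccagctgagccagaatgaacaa
Il18: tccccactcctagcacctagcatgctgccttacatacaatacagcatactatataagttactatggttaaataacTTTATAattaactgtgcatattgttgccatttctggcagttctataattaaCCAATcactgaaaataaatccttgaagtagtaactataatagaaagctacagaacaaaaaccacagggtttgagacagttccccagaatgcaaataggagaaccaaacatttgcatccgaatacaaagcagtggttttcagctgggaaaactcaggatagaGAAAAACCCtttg
The motifs were NF-kappaB (GGGNNTTTC), ISRE (GAAANNGAA), the forkhead motif (TAAACA) and the E-box motif of clock and other factors (CACGTG). Of the general promoter elements, the CCAAT box, the TATA element (spelled TATAAA) and the GC element (spelled GGGCGG) were searched. Both strands were read and overlaps were allowed. The Card9 window held a CCAAT 85 bases before the start, letters that 37.9% of all 27025 RefSeq promoter windows held. The Il18 window held a CCAAT 124 bases before the start, a reverse-strand TATAAA 175 bases before it, and a reverse-strand NF-kappaB match 38 bases into the transcript. TATAAA was found in 14.2% of all windows and the NF-kappaB letters in 4.46%. None of the searched letters occurred in the printed windows of Nlrx1 and Nlrp6. A looser NF-kappaB pattern that had been searched first (3 G, any 5 bases and 2 C) was held by 50.4% of all windows. It matched the Card9 window on the reverse strand 10 bases into the transcript and matched none of the other 3 printed windows. The window at the other RefSeq start of Nlrx1 held it 44 bases before that start, and windows of Tlr2, Nod1, Tlr5 and Nod2 held it too. Among the other members, the Myd88 window held an ISRE, a motif of interferon-responsive promoters, 40 bases before the start, which 8.57% of all windows held. The share of G and C was 36.7% in the Il18 window, the lowest of the members' windows, and 56% in that of Card9.

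Levels of different genes were compared as CPM per kilobase of exon. Over all 16 libraries the medians were 40.5 for Nlrp6, 38.4 for Il18, 13.1 for Myd88, 8.61 for Card9, 2.76 for Nlrx1, 2.47 for Nod1, 1.47 for Tlr2, 0.596 for Tlr4, 0.430 for Nod2 and 0.247 for Tlr5. The ranges over libraries of neighbours in this order overlapped for 7 of the 9 neighbouring pairs. The exceptions were Il18, whose lowest library (19.4) lay above the highest for Myd88 (18.8), and Tlr2, whose lowest (1.06) lay above the highest for Tlr4 (1.00). The median levels of the inflammasome receptor and its cytokine were thus over 10 times those of the Toll-like receptors per kilobase, and the counts behind Tlr5 were few, from 8 to 50 per library.

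The comparison of Control-STAM-INS with Control-STAM-nonINS asked which genes insulin treatment changed in the control genotype. Card9, on chromosome 2 (26352176 to 26360918, minus strand), had 12.2, 12.6, 14.0 and 9.53 CPM in the 4 Control-STAM-nonINS libraries. In Control-STAM-INS its level ran from 22.1 through a median of 26.6 to 35.6 CPM. Every insulin-treated library lay above every untreated library. The means were 12.1 ± 1.86 (SD, n = 4) and 27.8 ± 5.43 (SD, n = 6), a log2 fold change of 1.20 (SE 0.14).

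Nlrx1, on chromosome 9 (44252717 to 44268599, minus strand), had 9.18, 14.5, 9.12 and 5.90 CPM in Control-STAM-nonINS. It ran from 16.4 through 19.1 to 23.2 CPM in Control-STAM-INS, again without overlap, and its log2 fold change was 1.05 (SE 0.24). Nlrp6, on chromosome 7 (140920902 to 140929192, plus strand), had 131, 204, 131 and 145 CPM without insulin and ran from 204 through 218 to 250 CPM with it. The second untreated library reached the lowest insulin-treated one, so the groups touched, and the log2 fold change was 0.54 (SE 0.13).

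Il18, on chromosome 9 (50554827 to 50581840, plus strand), went the other way. It had 77.0, 48.1, 62.5 and 74.4 CPM in Control-STAM-nonINS and ran from 20.04 through 32.7 to 38.8 CPM in Control-STAM-INS. All insulin-treated libraries lay below all untreated ones, with a log2 fold change of -1.03 (SE 0.20). Because Nlrp6 was higher and Il18 lower, the ratio of Il18 to Nlrp6 counts within a library was 0.453 ± 0.152 (SD, n = 4) without insulin and 0.146 ± 0.0346 (SD, n = 6) with insulin. Across the 16 libraries the log2 levels of the 2 genes had a Pearson r of -0.83, and those of Card9 and Nlrx1 one of 0.84. These libraries share the 3 groups, so the values describe the group differences as well as the mice.

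Among the other members, Tlr5 had the largest log2 fold change, with a wide error. Tlr5, the flagellin receptor, had 1.41, 1.18, 2.40 and 2.19 CPM without insulin and 0.733 to 1.63 CPM with it (log2 fold change -0.62, SE 0.31). For Tlr2, a receptor of bacterial lipoproteins, and Tlr4, the receptor of lipopolysaccharide, the log2 fold changes were -0.06 (SE 0.20) and 0.16 (SE 0.26). For Nod1 and Nod2 they were -0.22 (SE 0.12) and -0.28 (SE 0.35), and for Myd88 0.18 (SE 0.12). The groups overlapped for all 5 of these genes and for Tlr5.

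Over the 16 libraries Nod1 ran from 10.2 to 16.4 CPM, Nod2 from 0.879 to 3.41 CPM, Tlr2 from 3.19 to 6.40 CPM, Tlr4 from 1.65 to 5.57 CPM and Myd88 from 26.5 to 48.3 CPM. Both extremes of Tlr4 fell in Control-STAM-INS, and the highest Myd88 level was in a library labelled ieIRKO-STAM-INS. In the GENCODE annotation of GRCm38, Nod1 lies on chromosome 6 (54923949 to 54972612, minus strand), Nod2 on chromosome 8 (88647315 to 88688474, plus strand), Tlr2 on chromosome 3 (83836272 to 83841767, minus strand), Tlr4 on chromosome 4 (66827584 to 66930284, plus strand) and Tlr5 on chromosome 1 (182954788 to 182976044, plus strand).

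In all, 4 of the 10 members (Card9, Nlrx1 and Nlrp6 higher, Il18 lower) had an adjusted p under 0.05 in this comparison, as did 10.5% of all tested genes (3.73% higher and 6.76% lower). The groups did not overlap for 2 members that were higher (4.4% of all tested genes) and 1 that was lower (6.23%). The members were chosen with this comparison in view, so nothing is read from these counts. The median log2 fold change of the 10 members was 0.05, beside 0.00 over all tested genes.

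**Figure D1:**
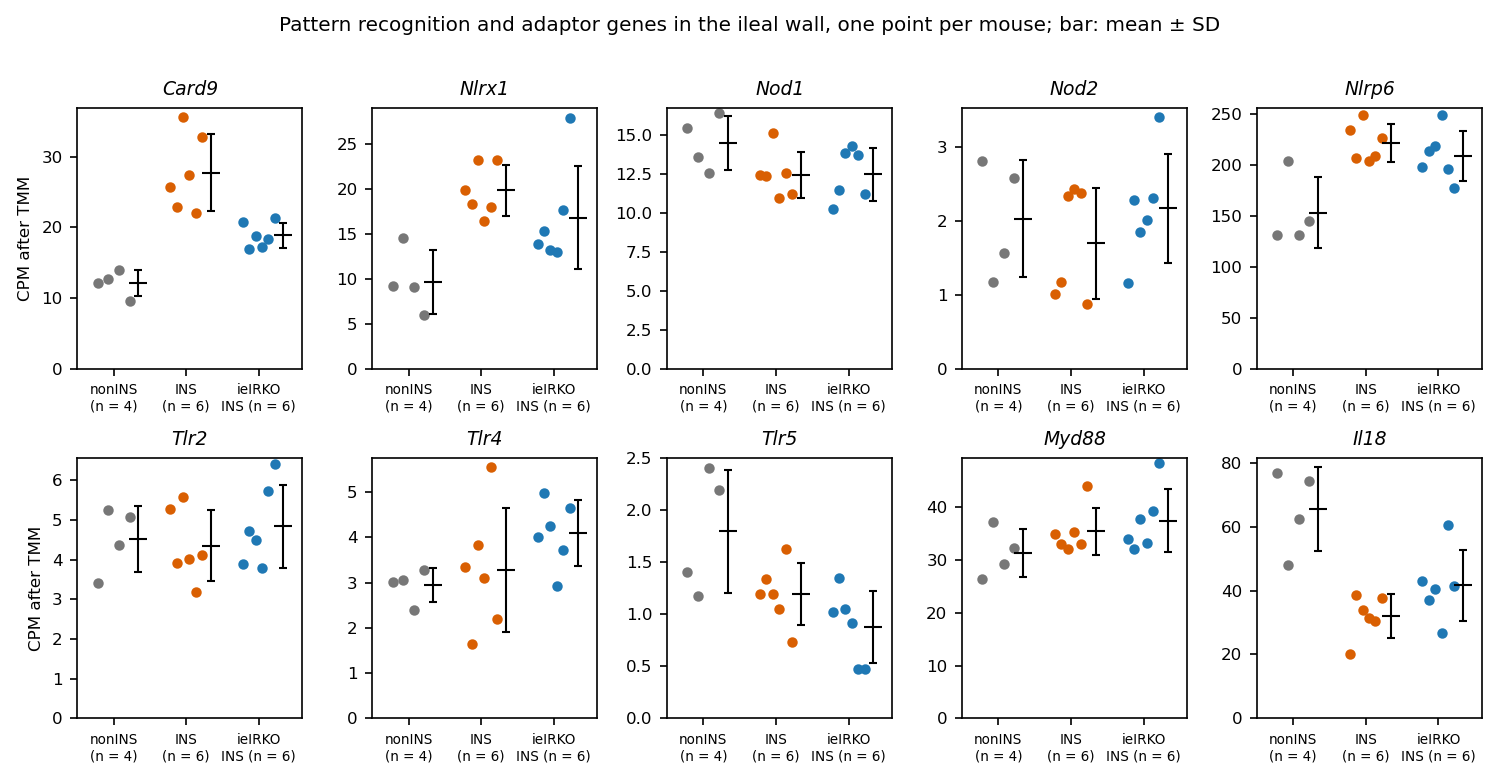
Level of each of the 10 genes (y axis, CPM after TMM scaling, starting at 0) in each mouse (points), for Control-STAM-nonINS, Control-STAM-INS and libraries labelled ieIRKO-STAM-INS, with the mean and SD beside the points. Card9 separates all 3 groups, at 9.53 to 14.0, 22.1 to 35.6 and 17.0 to 21.3 CPM, while Nod1, Nod2, Tlr2 and Tlr4 overlap between them.

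Markers of immune cells were read beside these values, since Card9 is known from myeloid cells. The summed level of 10 macrophage and monocyte markers ran from 279 to 397 CPM without insulin and from 315 to 406 CPM with it (log2 difference 0.15, exact two-sided permutation test, p = 0.171, adjusted p = 0.398 over 27 such tests). The 6 dendritic cell markers summed to 14.4 to 28.9 CPM without insulin and 25.3 to 33.8 CPM with it (log2 difference 0.53, exact permutation p = 0.0476, adjusted p = 0.161). The T cell sum, over 7 of 8 markers with a count, was 14.0 to 24.5 CPM and 23.7 to 39.8 CPM (log2 difference 0.82, exact permutation p = 0.0190, adjusted p = 0.103), and Trac was at 0 in every library.

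In the fit over all genes, where 3.73% were called higher and 6.76% lower, 3 of the 7 tested T cell markers, 1 of 6 dendritic cell and 1 of 10 macrophage markers were called higher. The 8 Paneth cell markers summed to 5387 to 9151 CPM without insulin and 7806 to 14160 CPM with it (log2 difference 0.54, exact permutation p = 0.0476, adjusted p = 0.161), and 4 of them were called higher. Of the other lists, 2 of 5 endothelial and 1 of 10 epithelial markers were called lower, and none in the B cell, goblet cell and smooth muscle lists. With 4 against 6 libraries and 27 tests, a single sum could not have passed the adjusted threshold, so the adjusted p of a sum says nothing here. Of the neutrophil markers, Mpo was at 0 in every library and the sum of the list was at most 1.05 CPM. With the macrophage sum as a covariate, the log2 fold change of Card9 was 1.32 and that of Nlrx1 1.33, and with the epithelial sum they were 1.10 and 0.918. For Il18 the same fits gave -1.09 and -0.94. The part of the dendritic, T cell and Paneth cell sums in these values was not tested.

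The comparison of the libraries labelled ieIRKO-STAM-INS with Control-STAM-INS asked what the knockout label changed under insulin. It shares the 6 Control-STAM-INS libraries with the comparison that chose the members, and Insr was not lower in the labelled libraries. None of the 10 members passed an adjusted p of 0.05 in edgeR, beside 0.223% of all tested genes. DESeq2 called 123 of 15267 genes, and 1721 genes had an unadjusted p under 0.05 in edgeR. Leaving aside Card9 and Nlrx1, no member was in either set. Card9 and Nlrx1 were named by the rule for being high in these same Control-STAM-INS libraries, which favours lower values elsewhere, so they are described here without a test.

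Card9 had 17.0 to 21.3 CPM in the labelled libraries, with a median of 18.6, and all 6 lay below all 6 Control-STAM-INS libraries. Groups without overlap in this direction were seen in 0.406% of all tested genes, and in the other direction, which no member showed, in 0.439%. The log2 fold change was -0.56 (SE 0.12).

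Since its level also lay above Control-STAM-nonINS in every labelled library, Card9 had 3 separate groups, with the libraries labelled ieIRKO-STAM-INS between the other groups. Among the 15267 tested genes, 672 had all insulin-treated controls above all untreated ones, and 3 of those had this full order. The rule named Card9 for its rise with insulin, which is part of this order, so nothing is read from these counts. The plot of levels by library shows these 3 bands. The summed Paneth cell markers, 8 genes, also set the labelled libraries apart from Control-STAM-INS, at 3039 to 5162 CPM against 7806 to 14160 CPM (log2 difference -1.43, exact permutation p = 0.00217, the smallest that 6 against 6 libraries allow, adjusted p = 0.0584). With 27 tests, a single sum at this smallest p could not have passed the adjusted threshold, so its adjusted p says nothing here. In the fit over all genes 7 of the 8 Paneth cell markers were called lower, among 28 such genes in all. Unlike Card9, they lay below the 5387 to 9151 CPM of Control-STAM-nonINS (log2 difference -0.892, exact permutation p = 0.00952, adjusted p = 0.103), and their part in the Card9 value was not tested.

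Il18 ran from 26.8 through 40.9 to 60.7 CPM in the labelled libraries, overlapping Control-STAM-INS, with a log2 fold change of 0.38 (SE 0.18, adjusted p = 0.449 from edgeR). Nlrx1 ran from 12.96 through 14.6 to 27.9 CPM, where the highest library, replicate 6, lay above every Control-STAM-INS library and the other 5 lay at or below 17.6. The difference on the log2 scale was -0.24 (SE 0.20). Nlrp6 was nearly level at 177 to 250 CPM, with a log2 fold change of -0.09 and a 95% confidence interval of -0.30 to 0.13.

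For Nod1, Nod2, Tlr2, Tlr4, Tlr5 and Myd88 the log2 fold changes ran from -0.44 for Tlr5 to 0.37 for Nod2, with adjusted p of 0.615 or more. The interval was -0.22 to 0.22 for Nod1 and -0.14 to 0.29 for Myd88, but -1.03 to 0.15 for Tlr5 and -0.25 to 0.99 for Nod2. The sparsely counted Tlr5 and Nod2 thus had far wider intervals than Nod1 and Myd88. The sign for Nod1 was not stable, since its value of 0.00 was slightly negative in DESeq2.

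The comparison of the libraries labelled ieIRKO-STAM-INS with Control-STAM-nonINS differs in both genotype label and insulin, and it shares the 4 untreated libraries with the comparison that chose the members. Here 5 of the 10 members had an adjusted p under 0.05, beside 13.3% of all tested genes. Of these, 3 were higher (5.74% of all tested genes) and 2 lower (7.59%), but 2 of the 3 higher ones were Card9 and Nlrx1, so nothing is read from these counts. Card9 (log2 fold change 0.65, SE 0.14) and Nlrx1 (0.81, SE 0.24) are given without a test because the rule named them. Nlrp6 was higher, by a log2 fold change of 0.45 (SE 0.13, adjusted p = 0.0240 from edgeR). Tlr5 and Il18 were lower, by log2 fold changes of -1.05 (SE 0.32, adjusted p = 0.0371) and -0.65 (SE 0.20, adjusted p = 0.0394).

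The calls of Nlrp6, Tlr5 and Il18 lay near the threshold. Only Card9 separated the groups without overlap, an order seen in 3.8% of tested genes, while no member lay wholly below (4.76% of tested genes). Nlrp6 lost its call without Control-STAM-nonINS replicate 1, 3 or 4, with adjusted p of 0.0963, 0.0844 and 0.0511. Tlr5 lost it without Control-STAM-nonINS replicate 1, 3 or 4 (adjusted p = 0.0527, 0.125 and 0.0899) and without ieIRKO-STAM-INS replicate 5 or 6 (0.0720 and 0.0663). Il18 lost it without Control-STAM-nonINS replicate 1, 3 or 4 (0.127, 0.0732 and 0.0926) and without ieIRKO-STAM-INS replicate 2, 3, 4 or 6 (0.0722, 0.0696, 0.0572 and 0.0592). Over all alternatives the call held in 15 of 20 for Nlrp6, 11 of 19 for Tlr5 and 8 of 20 for Il18. Il18 also lost it with upper-quartile factors (0.0588) and without the filter on low counts (0.0632), and Tlr5 without that filter (0.0518). Without ieIRKO-STAM-INS replicates 2 and 3, Nlrp6 and Il18 lost it (0.0757 and 0.124). Fitted on these 2 groups alone, only 1 member was called.

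**Figure D2:**
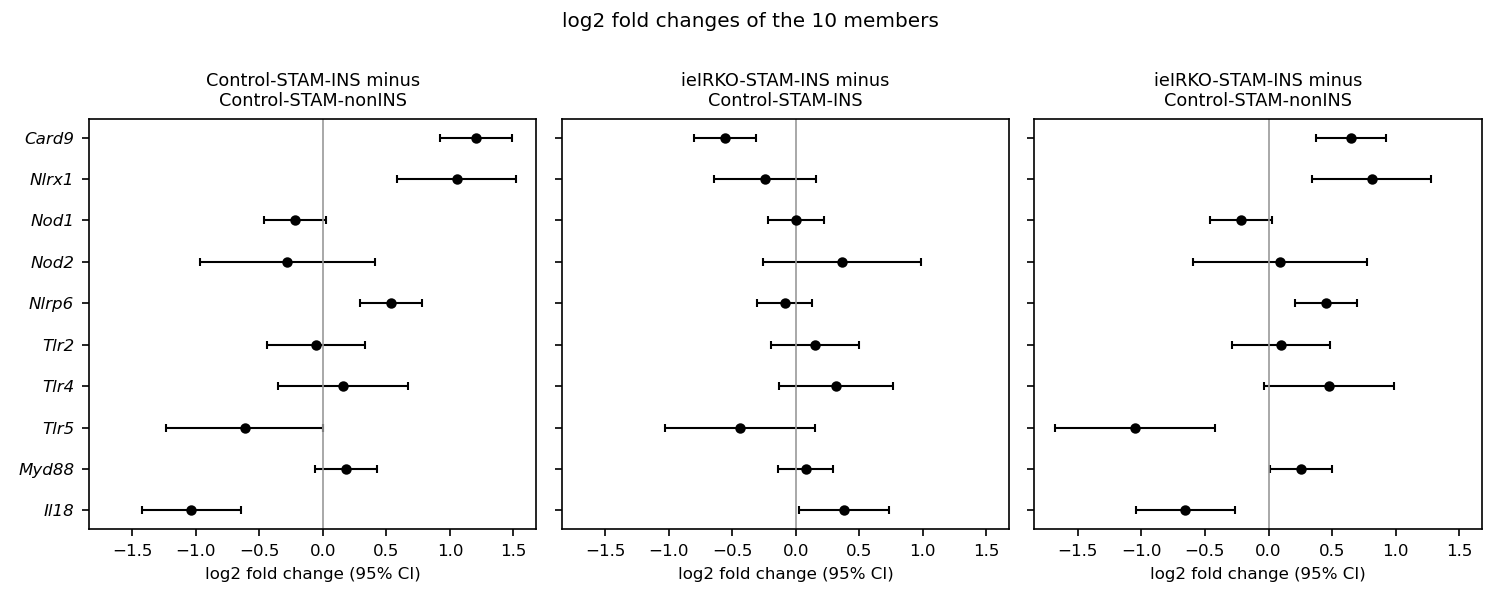
log2 fold changes (x axis) of the 10 genes in the 3 comparisons, with 95% confidence intervals that are not adjusted for the number of genes. Card9 and Nlrx1 lie at 1.20 and 1.05 and Il18 at -1.03 in the insulin comparison, and in the libraries labelled ieIRKO-STAM-INS against Control-STAM-INS all values lie between -0.56 and 0.38.

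Some members overlap other genes, and the strand setting of the counting was not stated. Myd88 (chromosome 9, 119335934 to 119341411) shares 290 exonic bases with Acaa1a, a peroxisomal thiolase gene on the opposite strand, whose counts were 4.53 to 9.07 times those of Myd88. Acaa1a had mean levels of 252, 242 and 233 CPM without insulin, with insulin and in the labelled libraries, against 31.3, 35.4 and 37.4 CPM for Myd88. Gm10686 shares 683 exonic bases with Nlrx1 and had no count in any library. Gm13562 shares 87 with Card9 and never passed 0.409 CPM.

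The genes whose log2 level followed Card9 most closely over the 16 libraries were Arl8b, a lysosomal GTPase (Pearson r = 0.91), Tmem238 (0.91) and BC031181 (0.89). For Nlrx1 they were Zdhhc7, a palmitoyltransferase (0.96), Cyb5r4 (0.94) and Duox2, the epithelial hydrogen peroxide-forming oxidase (0.94). For Nlrp6 they were Spns1 (0.93), Pigo (0.88) and Zdhhc23 (0.87). These values are a ranking over 16 libraries of 3 groups and carry no test.

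The rest of the pathways was followed in 142 further genes in 11 lists, of which 128 were tested. With insulin, 8 of them rose and 4 fell, which is 9.38% of the list genes beside 10.5% of all tested genes. The 12 calls became 5 without Control-STAM-nonINS replicate 1, and 7 without Control-STAM-nonINS replicate 3 or without Control-STAM-INS replicate 3, 4 or 6. In these fits the share of all tested genes called fell too, from 10.5% to between 5.34% and 8.07%. The list of other NOD-like receptors had 4 of 12 tested members that rose and none that fell, and its median on the log2 scale was 0.58. Both bacterial sensors of the Naip family that rose, Naip2 and Naip5, bind parts of bacterial secretion systems or flagellin and work with Nlrc4. Naip2 had 48.1, 62.3, 49.0 and 53.1 CPM without insulin and 70.1 to 93.4 CPM with it (log2 fold change 0.67, SE 0.16, adjusted p = 0.0109 from edgeR). Naip5 had 134, 180, 154 and 119 CPM and then 187 to 256 CPM (0.60, SE 0.14, adjusted p = 0.0108).

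The Naip genes are near-identical neighbours that can share reads, so their separate values are uncertain, and Naip1 and Naip6 had log2 fold changes of 0.25 and 0.17 that did not pass the test. Nlrp9b, a NOD-like receptor of the intestinal epithelium, and Nlrp1b, an inflammasome sensor, rose by 0.68 (SE 0.20, adjusted p = 0.0371) and 0.66 (SE 0.20, adjusted p = 0.0441). In the inflammasome list, the adaptor gene Pycard, whose product ASC links receptors to caspase-1, rose from 182 to 194 CPM without insulin to 227 to 309 CPM with it (log2 fold change 0.46, SE 0.13, adjusted p = 0.0354). Pycard was thus higher along with Nlrp6 in Control-STAM-INS, while Casp1 had a log2 fold change of 0.25 that did not pass the test.

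In the same list the DNA sensor Aim2 fell from 27.3, 16.9, 18.8 and 24.1 CPM to 9.18 to 14.5 CPM (log2 fold change -0.94, SE 0.15, adjusted p = 0.00098 from edgeR), without overlap. The cytokine gene Il1a fell from a mean of 1.63 to 0.438 CPM (-1.85, SE 0.46, adjusted p = 0.0163) at low counts. It lost its call without Control-STAM-nonINS replicate 1 (adjusted p = 0.0935). The inflammasome list of 15 tested genes thus held 1 that rose and 2 that fell, or 20% beside 10.5% of all tested genes (3.73% higher and 6.76% lower).

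Among the inhibitors of Toll-like receptor signalling, Il1rl1, which encodes the interleukin-33 receptor ST2, fell most. It had 22.4, 15.5, 22.5 and 17.1 CPM in Control-STAM-nonINS and 4.94 through 6.24 to 8.94 CPM in Control-STAM-INS (log2 fold change -1.56, SE 0.17, adjusted p = 3.84e-05 from edgeR). The single-immunoglobulin receptor gene Sigirr rose by 0.41 (SE 0.13, adjusted p = 0.0443). Nfkbiz, an atypical NF-kappaB inhibitor that Toll-like receptor signals induce, rose from 27.7 to 59.4 CPM to 73.6 to 122 CPM (0.89, SE 0.20, adjusted p = 0.00937). The chaperone gene Hsp90b1, which folds Toll-like receptors, rose by 0.49 (SE 0.13, adjusted p = 0.0197), and Birc3, a ubiquitin ligase of the NOD pathway, fell by 0.40 on the log2 scale (SE 0.12, adjusted p = 0.0393).

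Of these 12 genes, Il1rl1, Aim2, Nfkbiz, Naip5 and Naip2 passed in all 19 alternative fits. Hsp90b1 passed in 17 of 19 and Il1a in 17 of 18, while Pycard, Birc3, Nlrp1b, Nlrp9b and Sigirr passed in 8 to 10 of 19. When 1 of the 10 libraries was left out, Pycard kept its call only without Control-STAM-INS replicate 2 or 5, Birc3 only without Control-STAM-nonINS replicate 4 or Control-STAM-INS replicate 1, and Nlrp1b and Nlrp9b only without Control-STAM-nonINS replicate 2 or Control-STAM-INS replicate 1. Sigirr kept it only without replicate 2 of either group. The largest adjusted p of each of these 5 genes came without Control-STAM-nonINS replicate 1, from 0.0951 for Pycard to 0.191 for Birc3. Hsp90b1 lost it without Control-STAM-nonINS replicate 1 or 4 (0.0617 and 0.0594).

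No gene passed in the other 5 lists. These were the 9 other Toll-like receptors, the 12 tested adaptors and kinases of Myd88 and Trif, the 11 genes of the C-type lectin and Card9 complex list, the 15 cytosolic nucleic acid sensors with the Mavs pathway, and the 13 tested induced effectors. The direct partners of Card9 had log2 fold changes of 0.15 (Bcl10) and 0.13 (Malt1), with adjusted p of 0.382 and 0.782. Mavs, the mitochondrial antiviral adaptor that Nlrx1 is known to bind, had 0.24 (adjusted p = 0.225). Ripk2, the kinase below Nod1 and Nod2, had 0.13 (adjusted p = 0.711) and Tirap, which brings Myd88 to Tlr2 and Tlr4, 0.00 (adjusted p = 0.999).

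**Figure D3:**
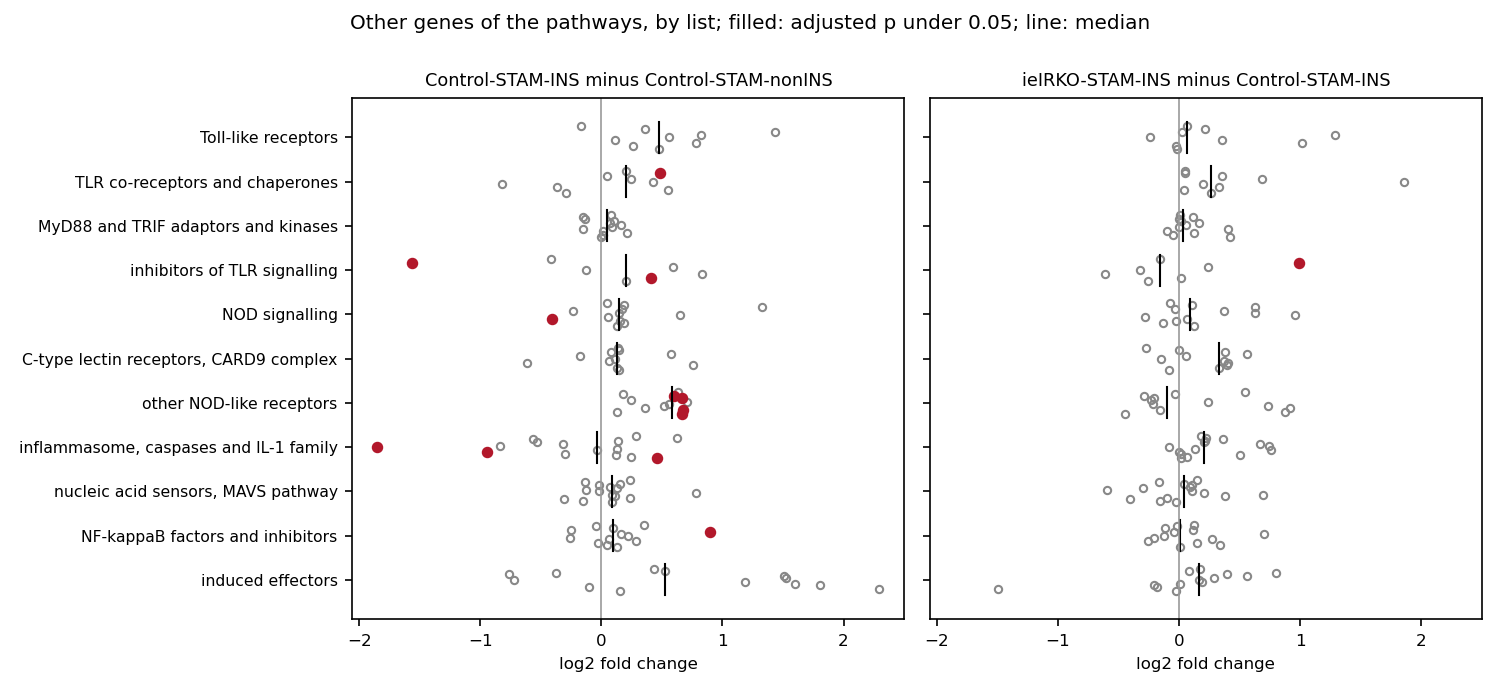
log2 fold changes (x axis) of the 128 other tested pathway genes by list (rows), for the insulin comparison on the left and the libraries labelled ieIRKO-STAM-INS against Control-STAM-INS on the right. Filled points have an adjusted p under 0.05 and the line is the list median. The left panel has 12 filled points, 4 of them among the other NOD-like receptors, and the right panel has 1, Il1rl1 at 0.99.

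In the libraries labelled ieIRKO-STAM-INS against Control-STAM-INS, 1 of the 128 tested pathway genes passed, or 0.781% beside 0.223% of all tested genes. This was Il1rl1, which had 9.06 through 13.3 to 15.4 CPM in the labelled libraries, all above the 4.94 to 8.94 CPM of the insulin-treated controls. The increase on the log2 scale was 0.99 (SE 0.16, adjusted p = 0.00328 from edgeR) and it passed in all 22 alternative fits. Against Control-STAM-nonINS the same libraries were lower by a log2 fold change of -0.57 (SE 0.17, adjusted p = 0.0287), again without overlap. Il1rl1 thus had 3 separate bands like Card9, in the opposite order, though the gap between the lowest untreated library (15.52 CPM) and the highest labelled one (15.45 CPM) was narrow. These comparisons share libraries. The plot of other pathway genes by mouse shows that Aim2, Nfkbiz and Pycard had no such band, with log2 fold changes against Control-STAM-INS of 0.00, -0.04 and 0.02.

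**Figure D4:**
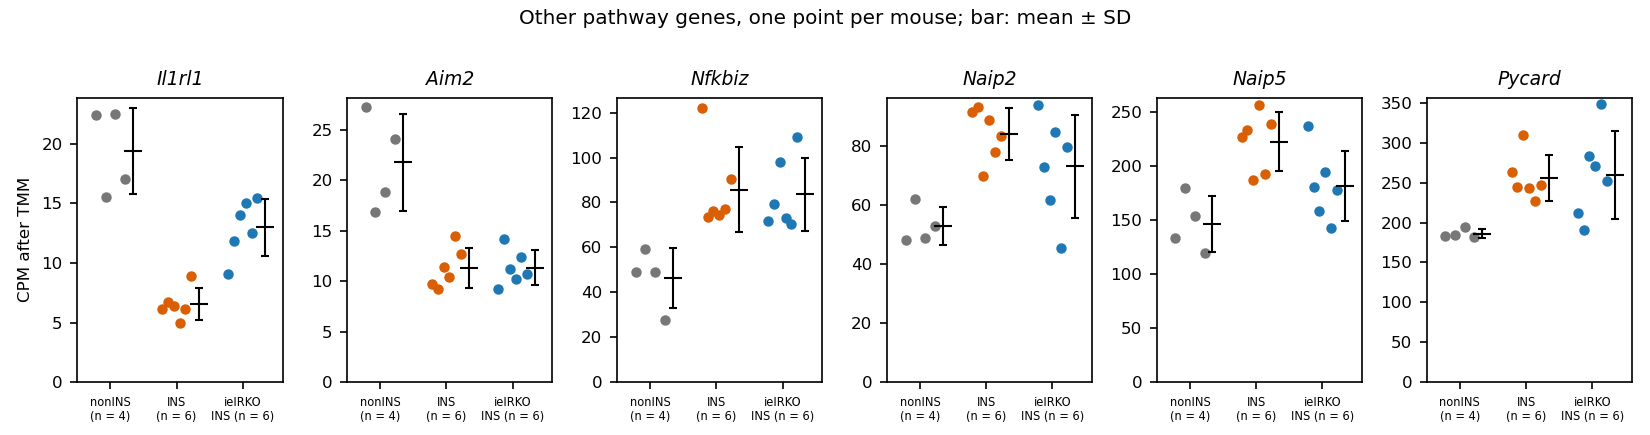
Levels (y axis, CPM after TMM scaling, starting at 0) of 6 other pathway genes in each mouse (points), with mean and SD, in the 3 groups. Il1rl1 lies at 15.5 to 22.5 CPM without insulin, 4.94 to 8.94 CPM with insulin and 9.06 to 15.4 CPM in the libraries labelled ieIRKO-STAM-INS, and Aim2 is lower in both insulin-treated groups.

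In the libraries labelled ieIRKO-STAM-INS, 17 of the 128 pathway genes rose and 5 fell relative to Control-STAM-nonINS, or 17.2% beside 13.3% of all tested genes. The 5 lower genes were Il1rl1, Aim2, Il1a and, named after their values were seen, the transcription factor gene Irf7 (log2 fold change -0.72, SE 0.20, adjusted p = 0.0248) and the helicase gene Dhx58 (-0.72, SE 0.20, adjusted p = 0.0227). In the same list of nucleic acid sensors, Tmem173, which encodes STING, and Zbp1 rose, by 0.79 (SE 0.19, adjusted p = 0.0128) and 0.99 (SE 0.31, adjusted p = 0.0452). The higher genes included Cd180, Tlr9 and Ciita, which B cells are known to express, with median levels of 2.89, 1.48 and 23.9 CPM in the labelled libraries against 0.811, 0.727 and 13.3 CPM without insulin. Their means in the labelled libraries were higher than these medians, at 4.86 ± 4.00, 3.18 ± 3.24 and 32.8 ± 18.5 CPM (SD, n = 6). A few libraries thus raised the means, but the medians too lay above the highest untreated levels of 1.92, 1.14 and 18.5 CPM. These genes too were named after their values were seen, and the part of B cell, T cell and dendritic cell markers in them was not tested. The number of pathway genes called fell to 9 without ieIRKO-STAM-INS replicates 2 and 3, the libraries with high B cell markers. It was 5 without Control-STAM-nonINS replicate 1, 12 without Control-STAM-nonINS replicate 3 and 13 without ieIRKO-STAM-INS replicate 3. In these fits the share of all tested genes called fell too, from 13.3% to 8.32%, 7.09%, 8.89% and 9.69% in this order. The B cell marker sum was 24.2 to 36.2 CPM in Control-STAM-nonINS and 27.7 to 522 CPM in the labelled libraries (log2 difference 1.45, exact permutation p = 0.124, adjusted p = 0.334). Against Control-STAM-INS, with 20.8 to 33.8 CPM, the log2 difference of the B cell sum was 1.70 (exact permutation p = 0.0173, adjusted p = 0.103). The T cell sum was 14.0 to 24.5 CPM in Control-STAM-nonINS and 24.0 to 64.0 CPM in the labelled libraries (log2 difference 1.18, exact permutation p = 0.0190, adjusted p = 0.103), and 5 of its 7 tested markers were called higher. The dendritic cell sum was 14.4 to 28.9 CPM and 23.6 to 46.6 CPM (log2 difference 0.758, exact permutation p = 0.0286, adjusted p = 0.129), with 3 of 6 markers called higher.

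**Figure D5:**
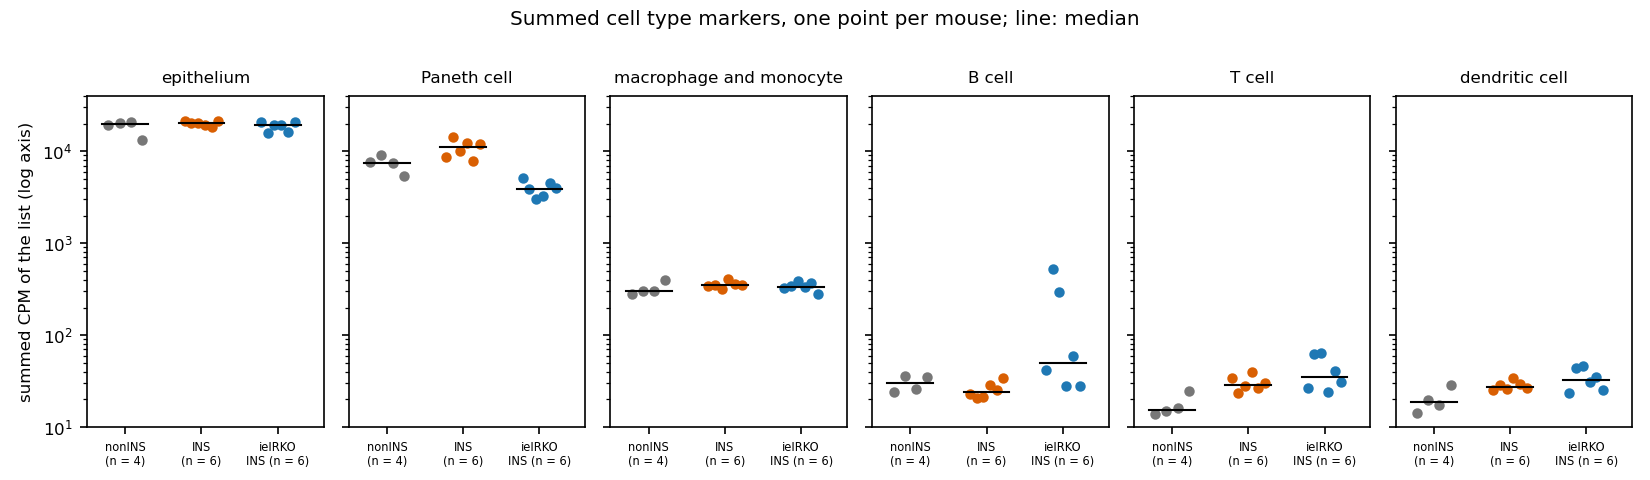
Summed CPM (y axis, log scale shared by all panels) of 6 cell type marker lists in each mouse (points), with the group median as a line. B cell markers reach 522 and 297 CPM in 2 libraries labelled ieIRKO-STAM-INS, Paneth cell markers lie at 3039 to 5162 CPM in that group, and the epithelial and macrophage sums overlap in all groups.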

How the data were processed

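Total RNA was sequenced from the ileal wall of 16 mice. The authors mapped reads to GRCm38 (mm10) with CLC Genomics Workbench 21.0.3 and deposited 1 table of read counts per gene for each mouse, without normalization; the annotation, strand setting and treatment of reads that fit several genes are not given in the sources used here. The members and lists were chosen with earlier results of these data known. In edgeR 4.0.16, genes were kept by filterByExpr (minimum count 10, minimum total 15), scaled by TMM and fitted in 3 groups over all 16 libraries with a robust quasi-likelihood model. Adjusted p-values are by Benjamini-Hochberg over 15267 genes. SEs were taken as the absolute log2 fold change over the root of F, with normal 95% intervals. The fit was tested on simulated data. Single values were compared by exact two-sided permutation tests on log2 CPM, which with 4 against 6 libraries cannot go below p = 0.00952. Named pathway genes were those with an adjusted p under 0.05 in the insulin comparison or against Control-STAM-INS, and a few members' partners were named after their values were seen. Alternatives were DESeq2 1.42.0, upper-quartile factors, other filters and tests, marker covariates and left-out libraries. Positions are from GENCODE on GRCm38, and figures were drawn with matplotlib 3.10.9. With 1 library per mouse, intervals hold both biological and counting error.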

Additional observations from a re-analysis of the deposited data

Results flagged for a closer look

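The distance of the highest or lowest library from its nearest neighbour, as a share of the group's range, both on log2 CPM, was examined in 57 groups of 4 or 6 libraries, where chance alone passes Dixon's 95% limit in about 1 of 20 groups. Both results that passed it were members, both in a group of 6. Myd88 was highest in Control-STAM-INS replicate 6, at 44.1 CPM against 32.1 to 35.4 CPM in the other 5 libraries of the group, a share of 0.695 on the log2 scale. Il18 was lowest in Control-STAM-INS replicate 1, at 20.04 CPM against 30.3 to 38.8 CPM in the other 5, a share of 0.628 on the log2 scale, which lies close to the limit for 6 libraries and is smaller on the linear CPM scale. Without replicate 1, the insulin comparison gave Il18 a log2 fold change of -0.93.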

How the results depend on the processing

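Members kept their direction in the insulin comparison where Card9 (1.10 to 1.32), Nlrx1 (0.868 to 1.33), Nlrp6 (0.468 to 0.715) and Il18 (-1.15 to -0.929) are concerned, over 19 alternatives each. For libraries labelled ieIRKO-STAM-INS against Control-STAM-INS, members called were 1 instead of 0 without Control-STAM-INS replicate 5, in DESeq2, in the likelihood ratio test and with the macrophage covariate. That member was Card9, which the rule had named for its level in these same Control-STAM-INS libraries, so nothing is read from its calls. Pathway genes called were 5 and 3 instead of 1 in DESeq2 and the likelihood ratio test. All genes called were 123 (65 higher and 58 lower) in DESeq2, 90 in the likelihood ratio test and 63 with the macrophage covariate, instead of 34 (6 and 28). For the same libraries against Control-STAM-nonINS, members called were 3 instead of 5 without the low-count filter, with the replicate block or without ieIRKO-STAM-INS replicates 2 and 3, and 1 in a fit of these 2 groups. Pathway genes called were 14 with the block, 35 with the epithelial covariate, 7 in the 2-group fit and 9 without replicates 2 and 3, instead of 22, and all genes called were 1038 and 1270 in the last 2 fits instead of 2036. Leaving out 1 library gave 3 to 4, 0 to 1 and 1 to 5 members, 5 to 15, 1 to 2 and 5 to 29 pathway genes, and 824 to 1877, 29 to 50 and 1093 to 2274 genes in the insulin comparison and against Control-STAM-INS and Control-STAM-nonINS; the cause was not tested. Insr ran from -0.0026 to 0.16. The sign of Nod1 against Control-STAM-INS turned in DESeq2 (-0.0048), with 10 counts in every library (-0.0028), with the block (-0.0017), with the epithelial covariate (-0.039), without replicates 2 and 3 (-0.017) and between -0.039 and 0.068 with 1 library left out. With 1 library left out, Nod2 (-0.086 to 0.27) and Tlr2 (-0.016 to 0.18) against Control-STAM-nonINS and Myd88 against Control-STAM-INS (-0.0077 to 0.15) also changed sign, as did Tlr2 (-0.17 to 0.028) and Tlr4 (-0.044 to 0.29) in the insulin comparison, and Nod2 did with the block (-0.0081). Same-numbered libraries did not deviate together in every pair (correlations -0.024 to 0.18, -0.020 to 0.17 and -0.094 to 0.047), so the numbers were not taken as pairs. With the block, Tlr5 (adjusted p = 0.104 from edgeR) and Il18 (0.0572) lost their calls against Control-STAM-nonINS. With the replicate block the insulin comparison had 4 members, 9 pathway genes and 1397 genes called. Tlr5, with 8 to 50 counts per library, had no fit with 10 counts in every library.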

Other observations

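Of 21 effectors that these receptors are known to induce, 8 had too few counts to be tested and others, such as Tnf (1.52 CPM without insulin), were scarce. The 5 with the highest level were chosen after their values were seen and varied between mice. The lectin genes Reg3b and Reg3g had 11500 ± 5782 and 4551 ± 2478 CPM (SD, n = 4) in Control-STAM-nonINS and 16590 ± 6232 and 6166 ± 3133 CPM (SD, n = 6) in Control-STAM-INS, with adjusted p of 0.328 and 0.543 from edgeR. The acute phase gene Saa1 had 273 ± 262 (SD, n = 4) and 954 ± 529 CPM (SD, n = 6), a log2 fold change of 1.81 with an SE of 0.73 and an adjusted p of 0.133. Duox2 had a log2 fold change of 1.52 (SE 0.51, adjusted p = 0.0728), and against Control-STAM-nonINS the libraries labelled ieIRKO-STAM-INS had one of 1.82 (SE 0.52, adjusted p = 0.0333), the only induced effector called in any of the 3 comparisons. With insulin Nos2 had a log2 fold change of -0.10 (SE 0.32, adjusted p = 0.882). Against Control-STAM-INS, the libraries labelled ieIRKO-STAM-INS had log2 fold changes from -0.20 for Saa1 to 0.29 for Duox2 in these 5 genes, with adjusted p of 0.838 or more.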
